A study of Mus musculus with 2 samples.

Results

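The EGF family of growth factors and the ErbB receptors that bind them were described in adult mouse kidney, as 10 of the 43346 genes in the deposited tables. The members were chosen by gene symbol: the ligands Egf, Hbegf, Tgfa, Btc, Areg and Nrg1, and the receptors Egfr, Erbb2, Erbb3 and Erbb4. RNA sequencing had been run on 2 libraries, replicate 1 and replicate 2 of a single group. Per the labels, both came from kidneys of C57BL/6J mice, an inbred laboratory strain, aged 8 weeks, with male and female littermates pooled, no treatment named and the health state unknown. Per the labels, the libraries are separate biological replicates that share a donor label, so every SD here measures only the spread between these 2 libraries. Each p-value sets the difference between them against counting error alone. There was no second condition, and the data give levels, isoform shares and the difference between the libraries.

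EGF family ligands are made as precursors anchored in the membrane, and proteases of the cell surface release the active growth factor. Each active ligand folds around a domain held by cysteine bridges, which binds an ErbB receptor and brings receptors together in pairs, and the paired kinases then start the ERK and AKT cascades. In the kidney, EGF is made by the thick ascending limb and the distal convoluted tubule, is shed into urine and acts on the magnesium channel TRPM6 of the distal convoluted tubule.

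The domain shared by the ligands is shown because it is what makes them one family. It was located in each coding sequence of GENCODE M21 (build GRCm38, the same coordinates as mm10) as the only stretch with 6 cysteine codons in the family's spacing, with a glycine and an arginine ahead of the last cysteine. All 6 ligands had exactly 1 such stretch, of 36 to 40 codons, and in each it was split over 2 exons. It lay far downstream in the long Egf precursor, at codons 982 to 1018 of 1217, and at codons 46 to 81 of 159 in Tgfa. The span from its first to its last base, intron included, is chr3:129686322-129690850 (minus strand) for Egf and chr6:86263200-86269960 (plus strand) for Tgfa. That span is chr5:91362421-91366197 (minus strand) for Btc, chr5:91143614-91144364 (plus strand) for Areg and chr8:31837698-31849398 (minus strand) for Nrg1. The spliced coding bases follow 5′ to 3′, with the cysteine codons in capitals.
Egf: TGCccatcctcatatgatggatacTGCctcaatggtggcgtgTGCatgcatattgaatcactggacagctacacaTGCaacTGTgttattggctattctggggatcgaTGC
Tgfa: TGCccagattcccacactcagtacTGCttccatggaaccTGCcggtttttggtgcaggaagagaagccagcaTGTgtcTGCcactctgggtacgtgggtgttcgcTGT
Btc: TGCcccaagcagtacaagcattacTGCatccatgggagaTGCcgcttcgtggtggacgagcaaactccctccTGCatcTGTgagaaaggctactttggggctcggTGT
Areg: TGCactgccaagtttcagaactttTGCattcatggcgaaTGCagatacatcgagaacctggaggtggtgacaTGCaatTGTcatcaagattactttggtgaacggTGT
Nrg1: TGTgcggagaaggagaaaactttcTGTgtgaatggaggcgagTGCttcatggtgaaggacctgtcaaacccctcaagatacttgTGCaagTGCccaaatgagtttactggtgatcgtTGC

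Aligned after translation, these stretches were identical at 27.5% of positions for the least similar pair, Tgfa and Nrg1, and at 55.6% for the most similar, Hbegf and Btc. The cysteines, glycine and arginine by which the stretches were located are common to all of them, so part of each identity was set by that choice. Egf, the highest of these ligands by TPM in both libraries, shared 35.0% to 40.5% with the others. The 4 receptors were 38.9% (Erbb2 and Erbb3) to 50.7% (Egfr and Erbb4) identical over their whole length. Of the members, 8 had a deposited posterior SD of 0 for the estimated gene count in both libraries, and the largest such SD was 0.11 counts.

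Over genes, replicate 1 held 67252609 expected counts and replicate 2 held 87330097. Kidney markers were present: all 4 genes each of the proximal tubule, thick ascending limb, distal convoluted tubule, connecting tubule and collecting duct principal cell lists reached 1 TPM (a transcript abundance that divides by length and sums to the same total in each library) in both. The labels' pooled sexes were not matched by the Y-linked genes: Ddx3y, Eif2s3y and Uty had 0 counts in both libraries and Kdm5d had 3 counts in replicate 2, while Xist had 26.8 and 31.4 TPM. The libraries also stood apart in genes of neighbouring tissues. The summed TPM of 4 skeletal muscle genes was 2.18 in replicate 1 and 683 in replicate 2, that of 4 adrenal cortex genes 35.95 and 0.55, and that of 4 lymphocyte genes 2.26 and 25.7. Fat genes were high in both libraries, with a summed TPM over 4 genes of 1846 in replicate 1 and 1206 in replicate 2. The mitochondrial genome held 11.2% and 17.9% of TPM. At 1 TPM or more in both libraries, 72.1% of detected genes had the lower TPM in replicate 2, with a median ratio of 0.877. In whole tissue, fewer cells of a type and less RNA per cell cannot be told apart.

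Egf stood far above every other member. Its gene (ENSMUSG00000028017.3, chr3:129677565-129755316, minus strand) had 425.71 TPM in replicate 1 and 294.69 in replicate 2, a mean of 360.2 ± 92.6 TPM (SD, n = 2). The tables held 1 transcript, Egf-201, so its isoform share was 100% by construction, although M21 lists 9 transcripts of the gene. Of the 13108 genes at 1 TPM or more in both libraries, 97.5% had a lower mean TPM than Egf. It held 96.6% of the summed TPM of the 6 ligands in replicate 1 and 95.8% in replicate 2. Egf was 80.6 and 61.5 times Hbegf by TPM, replicate 1 first, and 77.3 and 65.1 times Tgfa, the next 2 ligands in order.

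**Figure D1:**
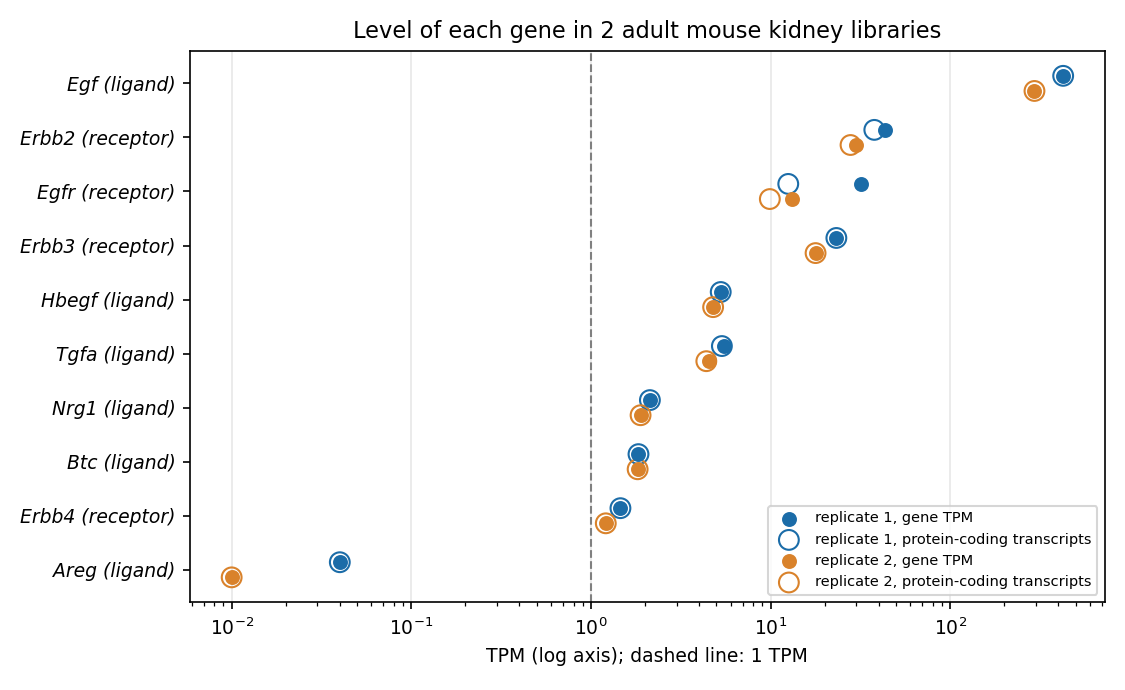
Level of the 10 members in each library on a log axis of TPM, with filled points for the gene and open circles for its protein-coding transcripts only. Egf lies at 294.69 to 425.71 TPM, all other members lie at 43.20 TPM or lower, and the filled and open points part most for Egfr, where replicate 1 has 31.78 TPM for the gene and 12.55 for the coding transcripts.

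Hbegf and Tgfa formed the next tier of ligands. Hbegf encodes a heparin-binding ligand of Egfr and Erbb4 that is shed by metalloproteases, and it had 5.28 and 4.79 TPM (mean 5.04 ± 0.346, SD, n = 2). Tgfa encodes transforming growth factor alpha, a ligand of Egfr alone, and it had 5.51 and 4.53 TPM (mean 5.02 ± 0.693, SD, n = 2). Their ranges overlapped, and Tgfa was the higher of the pair in replicate 1 and Hbegf in replicate 2. About 26.8% of detected genes lay below each of them.

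Nrg1 and Btc were not far above the 1 TPM set as the threshold for detection. Nrg1, which encodes neuregulin 1, a ligand of Erbb3 and Erbb4, had 2.13 and 1.89 TPM on 217 and 268 counts. Btc, which encodes betacellulin, a ligand of Egfr and Erbb4, had 1.84 and 1.82 TPM on 264 and 362 counts. Nrg1 was above Btc in both libraries, but the deposited TPM intervals overlapped in each, at 1.85 to 2.41 against 1.62 to 2.06 in replicate 1 and 1.67 to 2.12 against 1.63 to 2.00 in replicate 2. The tables hold 1 of 18 M21 transcripts of Nrg1 and 1 of 4 of Btc, so reads from the many Nrg1 isoforms that differ in their first exons were counted only as far as they match Nrg1-201. The opposite strand of the Nrg1 gene carries the lincRNA Gm26578, with 156 and 114 counts. It lies at chr8:32008504-32015759, outside the span of Nrg1-201, chr8:31817756-31918280.

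Areg, which encodes amphiregulin, a ligand of Egfr induced in injury and by growth signals, was at the limit of what this depth can detect. It had 2 counts in replicate 1 and 1 in replicate 2, or 0.04 and 0.01 TPM, both under the 3 counts that a count of 0 allows. Areg was the only member below 1 TPM and the only one with too few counts to test.

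Among the 5 ligands of the family that are not members, Nrg4 alone was detected. Nrg4, which encodes a neuregulin that binds Erbb4, had 6.36 and 7.51 TPM (mean 6.94 ± 0.813, SD, n = 2), above each of Hbegf, Tgfa, Nrg1 and Btc in both libraries. Fat genes were also high in both libraries, and whether Nrg4 came from kidney cells or from fat was not tested. Nrg2, a further neuregulin, had 0.33 and 0.27 TPM. Nrg3 had 2 and 4 counts, Ereg (epiregulin) 0 TPM in replicate 1 and 0.02 in replicate 2, and Epgn (epigen) 0 counts in both.

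The receptors lay between Egf and the other ligands, except for Erbb4. Their median was 21.5 ± 8.47 TPM (SD over library medians, n = 2), against 3.46 ± 0.350 for the ligands. Over all detected genes, the median of each gene's mean TPM was 12.6. Erbb2 (chr11:98412470-98437716, plus strand), which encodes the receptor with no known ligand of its own that serves as the preferred partner of the others, was the highest, at 43.20 and 29.72 TPM (mean 36.46 ± 9.53, SD, n = 2). It exceeded Erbb3 1.86-fold and 1.67-fold in the libraries. Erbb3 (chr10:128567523-128589652, minus strand), which encodes the neuregulin receptor with a weak kinase that signals through PI3-kinase when paired, had 23.25 and 17.81 TPM (mean 20.53 ± 3.85, SD, n = 2).

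Erbb4 (chr1:68032186-69108059, minus strand) was the lowest receptor. It encodes the receptor of the neuregulins and of Hbegf and Btc, and it had 1.46 and 1.21 TPM (mean 1.335 ± 0.177, SD, n = 2) on 848 and 1039 counts spread over a long transcript. Erbb2 was 29.6-fold and 24.6-fold higher, and only 2.22% of detected genes had a lower mean TPM than Erbb4. Its deposited TPM interval, 1.41 to 3.22 in replicate 1 and 1.19 to 2.17 in replicate 2, overlapped those of Btc.

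Of the 9 members tested, Egfr had the largest fold difference in TPM between the libraries. Its gene (chr11:16752203-16918158, plus strand), which encodes the receptor of Egf, Tgfa, Areg, Btc and Hbegf, had 31.78 TPM in replicate 1 and 13.25 in replicate 2 (mean 22.5 ± 13.1, SD, n = 2). The deposited intervals of 28.97 to 36.1 and 12.1 to 15.3 TPM did not meet. The counts were nearly the same, 4345 and 4543, and scaled for depth they gave a ratio of replicate 2 to replicate 1 of 0.849 (95% interval 0.814 to 0.885), against 2.40-fold more TPM in replicate 1. By gene TPM, Egfr ranked above Erbb3 in replicate 1 and below it in replicate 2. Gene TPM alone therefore did not settle the Egfr level, and its transcripts were looked at separately.

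The gap between counts and TPM lay in the effective length, the average length in reach of a fragment over the transcripts of a gene, by which TPM divides. For Egfr it was 2548 nt in replicate 1 and 4618 nt in replicate 2. Of the 13108 detected genes, 130 (0.992%) had effective lengths that differed 1.5-fold or more between the libraries, and Egfr was the 1 member among them. The tables divide Egfr over 5 transcripts. Egfr-201 (10208 nt, 28 exons, 1210 codons) is the full receptor and holds the catalytic loop of the kinase. Egfr-202 (2943 nt, 16 exons, 655 codons) stops before the kinase and lacks that motif. Egfr-204 (716 nt) and Egfr-205 (446 nt, 2 exons) have no coding sequence in M21.

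Egfr-205 carried the difference in effective length. It held 49.99% of Egfr TPM in replicate 1 and 9.10% in replicate 2, on 205.59 and 22.58 expected counts, which were 4.73% and 0.497% of the counts of the gene. Scaled for depth, its counts were 11.2-fold higher in replicate 1, with deposited SDs of the counts of 15.1 and 12.4. Its TPM was 15.89 and 1.21. This short transcript thus made up the greatest part of gene TPM in replicate 1 on a small part of the reads. Of its bases, 76.5% are also in Egfr-201, since it begins with the receptor's first exon. The other 105 bases are an exon of its own inside the first intron of Egfr-201.

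A stretch is shown from each of a pair of shorter transcripts where it parts from the full receptor, since reads there can tell the forms apart. Other bases outside Egfr-201 are not shown. The first is the coding end of Egfr-202 (chr11:16887141-16887225, plus strand), where the 40 capital bases continue past the exon of Egfr-201 into what is intron for the full receptor. The second is the junction of Egfr-205 (chr11:16752541-16793744, plus strand), with the last 30 bases of the shared first exon in lower case and its own exon in capitals.
Egfr-202: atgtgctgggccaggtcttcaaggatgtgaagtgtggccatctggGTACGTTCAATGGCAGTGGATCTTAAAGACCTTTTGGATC
Egfr-205: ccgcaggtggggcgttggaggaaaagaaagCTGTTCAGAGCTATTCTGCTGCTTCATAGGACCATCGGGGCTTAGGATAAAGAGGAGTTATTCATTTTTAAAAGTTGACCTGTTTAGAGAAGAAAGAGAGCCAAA

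The full receptor and the form without the kinase kept close to the same proportion to each other in both libraries. Egfr-201 had 5.69 and 4.48 TPM on 3053.14 and 3328.86 counts. Egfr-202 had 6.76 and 5.43 TPM on 993.06 and 1108.89 counts. The short form without the kinase was thus the higher by TPM in each library, while the full receptor held 70.3% and 73.3% of the counts of the gene. The isoform share of Egfr-201 was 17.90% and 33.79% and that of Egfr-202 was 21.27% and 41.00%, and both shares moved with that of Egfr-205, since shares of a gene sum to 100%. Egfr-204 had 10.54% and 16.10%, on 91.87 and 82.68 counts. Egfr-203, a further coding model of 136 codons, had 0.31% and 0.

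**Figure D2:**
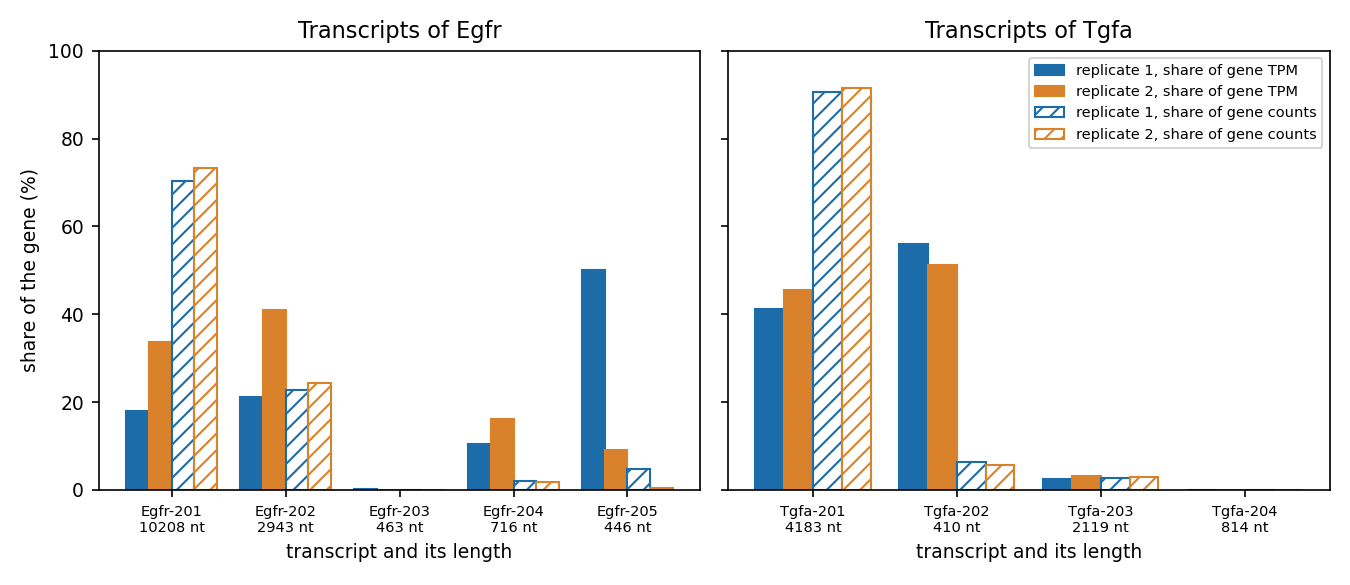
Share of each transcript in its gene, in percent, for Egfr (left) and Tgfa (right), with filled bars for the share of TPM and hatched bars for the share of expected counts in each library. Egfr-205 holds 49.99% of TPM in replicate 1 and 9.10% in replicate 2, while Egfr-201 holds 70.3% and 73.3% of the counts.

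Counted over protein-coding transcripts alone, Egfr had 12.55 and 9.91 TPM (mean 11.2 ± 1.87, SD, n = 2), and the libraries differed 1.27-fold. The greater part of this was Egfr-202, the form without the kinase, at 6.76 and 5.43 TPM, against 5.69 and 4.48 for the full receptor. Erbb3, with 1 transcript, was above the Egfr level over coding transcripts 1.85-fold in replicate 1 and 1.80-fold in replicate 2. On this scale, chosen after the isoform shares had been seen, the receptor order was Erbb2, Erbb3, Egfr, Erbb4 in both libraries, with no overlap between neighbours. The coding transcripts of Erbb2 held 50.4% and 49.1% of the receptor sum, those of Erbb3 31.0% and 31.4%, those of Egfr 16.7% and 17.4% and those of Erbb4 1.94% and 2.13%. The make-up of the receptor sum was close to the same in both libraries, while the sum itself was 75.08 TPM in replicate 1 and 56.81 in replicate 2.

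The Tgfa transcripts showed the same pull of a short transcript on isoform shares, here alike in both libraries. Tgfa-202 (410 nt, 98 codons, 4 exons against 6, a coding model without the complete growth factor motif) held 56.05% and 51.29% of Tgfa TPM on 33.99 and 37.27 counts. Tgfa-201, which contains the whole domain printed above, held 41.16% and 45.62% on 484.01 and 611.73 counts, or 90.6% and 91.4% of the counts. In the M21 models every base of Tgfa-202 is also in Tgfa-201, while the deposited SDs of the Tgfa-202 counts were only 1.11 and 0.88.

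For Erbb2, the full coding transcript Erbb2-201 held 87.55% and 93.81% of TPM. The other forms, Erbb2-202 and Erbb2-203, are listed as noncoding. The 3′ end of Erbb2 overlaps Mien1 on the opposite strand by a few bases, and Mien1 had 2825 and 4858 counts. The labels call the libraries stranded, but no label or header states how strand entered the counting.

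The Erbb4 transcripts differ in a pair of known cassettes. One is a juxtamembrane choice between the JM-a form, which metalloproteases can cut, and the JM-b form, which they cannot. The other is the CYT-1 cassette of the cytoplasmic tail, which carries a docking site for PI3-kinase and is missing from CYT-2 forms. Erbb4-202, with the 75-base JM-a exon and without CYT-1, held 62.46% and 78.46% of Erbb4 TPM. Erbb4-201, with JM-a and CYT-1, held 27.96% and 18.86%. The JM-b form in the tables, Erbb4-205, which has a 45-base exon in place of the 75-base exon, held 9.58% and 2.68%, on 14.95 and 4.83 counts. All 2196 bases of the Erbb4-205 model are coding. It breaks off after 732 codons with no stop codon, without the kinase, so the model may be incomplete. The form without CYT-1 was the higher in both libraries. The deposited SDs of the counts were 50.1 and 69.9 for Erbb4-201, which had 253.74 and 196.89 counts, so the split between the long forms was loosely set. The CYT-1 exon of Erbb4-201 is shown because its 48 bases alone, 16 codons, separate the tails of the long forms. It is in capitals, with 15 coding bases of the neighbouring exons on each side (chr1:68042724-68071532, minus strand).
Erbb4-201: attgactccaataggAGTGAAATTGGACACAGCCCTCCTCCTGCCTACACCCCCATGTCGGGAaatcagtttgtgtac

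By the test between libraries, no member was called. Counts were compared by a two-sided exact binomial test with library sizes scaled by edgeR's trimmed mean of M values (TMM), and a gene was called at a Benjamini-Hochberg adjusted p under 0.05 with a change of 2-fold or more. Of 18723 genes with 10 or more counts, 1455 were called (7.77%), against 0 of the 9 members tested. All 9 were at 1 TPM or more in both libraries, and of the 13100 tested genes at that level 244 were called (1.86%), so 0 of 9 is near the background. The test compares the reads of 2 libraries and not conditions. At this depth 10627 genes (56.8%) passed the adjusted p alone, as did 4 of the 9 members, and the same 4 members had an unadjusted p under 0.05.

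Those 4 were the 4 members with the most counts, and all were somewhat lower in replicate 2, by less than 2-fold. Egf had a ratio of replicate 2 to replicate 1 of 0.779 (95% counting interval 0.772 to 0.786) on 103994 and 99825 counts, with an exact binomial p too small for the computation to write. Erbb2 had a ratio of 0.815 (0.793 to 0.838) on 10331 and 10372 counts, with an exact binomial adjusted p of 1.13e-47. For Egfr the exact binomial adjusted p was 7.38e-14 at the ratio of 0.849 given above. Erbb3 had a ratio of 0.862 (0.835 to 0.890) on 7249 and 7697 counts, with an exact binomial adjusted p of 9.56e-19. On the log2 scale these differences were -0.36, -0.30, -0.24 and -0.21. They stayed within the 90th percentile of the absolute log2 difference over detected genes, 0.54, and exceeded the median of 0.19.

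The other members gave ratios near 1. Hbegf had 614 and 775 counts and a ratio of 1.02 (0.920 to 1.14), with an exact binomial adjusted p of 0.757. Tgfa had 534 and 669 counts and an exact binomial adjusted p of 0.862 at a ratio of 1.02. For Nrg1 the ratio was 1.00, and for Erbb4 it was 0.995 with an exact binomial adjusted p of 0.966. Btc had the highest ratio, 1.11, with an exact binomial adjusted p of 0.277. By counts 5 of the 9 were lower and 4 higher in replicate 2, and the median absolute log2 difference of the 9 was 0.15. By gene TPM all 10 members were lower in replicate 2, as were 72.1% of detected genes.

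**Figure D3:**
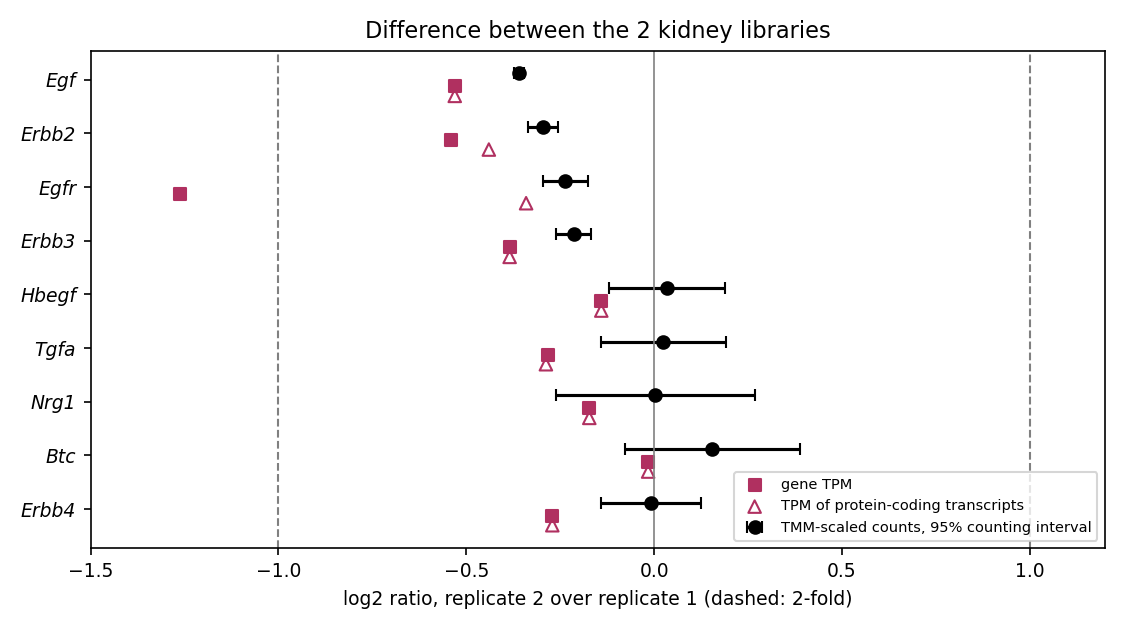
Log2 ratio of replicate 2 to replicate 1 for the 9 tested members, as TMM-scaled counts with 95% counting intervals (black), gene TPM (squares) and TPM of protein-coding transcripts (triangles). All black points lie inside the dashed 2-fold lines, and Egfr by gene TPM, at -1.26, is the point outside them.

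Of the 8 markers of the segments that make EGF, some were lower and some higher in replicate 2 by counts. Umod, which encodes uromodulin of the thick ascending limb, had 3204 and 1908 TPM and a count ratio of 0.672. Slc12a1, the sodium transporter of that segment, had a ratio of 0.810, near the 0.779 of Egf, and Ptger3, a prostaglandin receptor, 0.639. Cldn16, a claudin of the same cells, had 1.02. In the distal convoluted tubule, Slc12a3, its sodium chloride transporter, had 0.544, Wnk4, a kinase that regulates that transporter, 1.04, and Trpm6, the magnesium channel, 0.960. The fourth gene of that list, Pvalb, also a gene of fast muscle, had 3.03 and was called. The summed TPM was 3418 and 2059 for the thick ascending limb list and 629.5 and 389 for the distal convoluted tubule list. The part of these cell types, or of the muscle and adrenal RNA, in the differences of the members was not tested.

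Genes that release the ligands from the membrane were present. Of 9 genes of shedding and trafficking, 8 reached 1 TPM in both libraries and 0 were called. Over all 43346 genes, noncoding genes and pseudogenes included, 30.2% reached 1 TPM in both libraries. Of tested genes at that level 1.86% were called, so 0 is near the background for this list and those below. Adam17, the main sheddase of Tgfa, Areg and Hbegf, had 12.24 and 12.75 TPM, and Adam10, the main sheddase of Egf and Btc, had 11.93 and 9.62. The highest were Timp3, an inhibitor of metalloproteases including ADAM17 (532 ± 182 TPM, SD, n = 2), Rhbdf1, an inactive rhomboid that carries ADAM17 to the surface (69.2 ± 21.7), and Adam9, another metalloprotease (16.8 ± 1.12). For Timp3 too, TPM and counts parted: 660.85 and 403.03 TPM stood against a count ratio of 1.04. The lowest was Rhbdl2, a rhomboid protease that cuts EGF, with 1.14 and 0.97 TPM.

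All 11 listed genes that restrain or degrade the receptors were detected, and 0 were called, near the background of 1.86%. Errfi1, which encodes MIG6, an inhibitor bound to the kinase domain of the receptors, was highest at 177.03 and 152.15 TPM, above every receptor member in both libraries. The phosphatases Ptpn1 (21.8 ± 2.89 TPM, SD, n = 2) and Ptprj (14.97 ± 0.537) followed. Socs4, a suppressor of signalling that targets Egfr for degradation, was lowest with 2.13 and 2.34 TPM. The median of the list was 7.73 ± 0.445 TPM.

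Of the genes listed for the relay from the receptors to ERK and AKT, 25 of 25 were detected, with a median of 24.1 ± 3.07 TPM (SD, n = 2). None was called, near the background of 1.86%. Mapk3, which encodes ERK1, was at 149 ± 20.3 TPM, Araf, a RAF kinase, at 127 ± 17.4 and Map2k2, which encodes MEK2, at 125 ± 9.58. Sos1, an exchange factor that loads RAS, was lowest at 2.5 and 3.0 TPM. Every gene of this list thus lay above Erbb4 and Btc by mean TPM.

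Of 14 genes of ERK feedback and response, 12 were detected and 0 were called, near the background of 1.86%. Spry1, a feedback inhibitor of receptor tyrosine kinases, had 38.67 and 31.32 TPM. Dusp6, the ERK phosphatase, had 32.20 and 25.21 TPM and Ier3, an early response gene, 20.28 and 18.83. Egr1, an early response transcription factor, had 3.54 and 3.68 TPM. Dusp5, a nuclear ERK phosphatase, and Etv4, an ETS factor, missed 1 TPM in one library each, and Etv4 was lowest at 1.00 and 0.70. Trpm6, the channel through which EGF acts on magnesium, was not far above the threshold of 1 TPM, at 1.45 and 1.24 TPM.

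**Figure D4:**
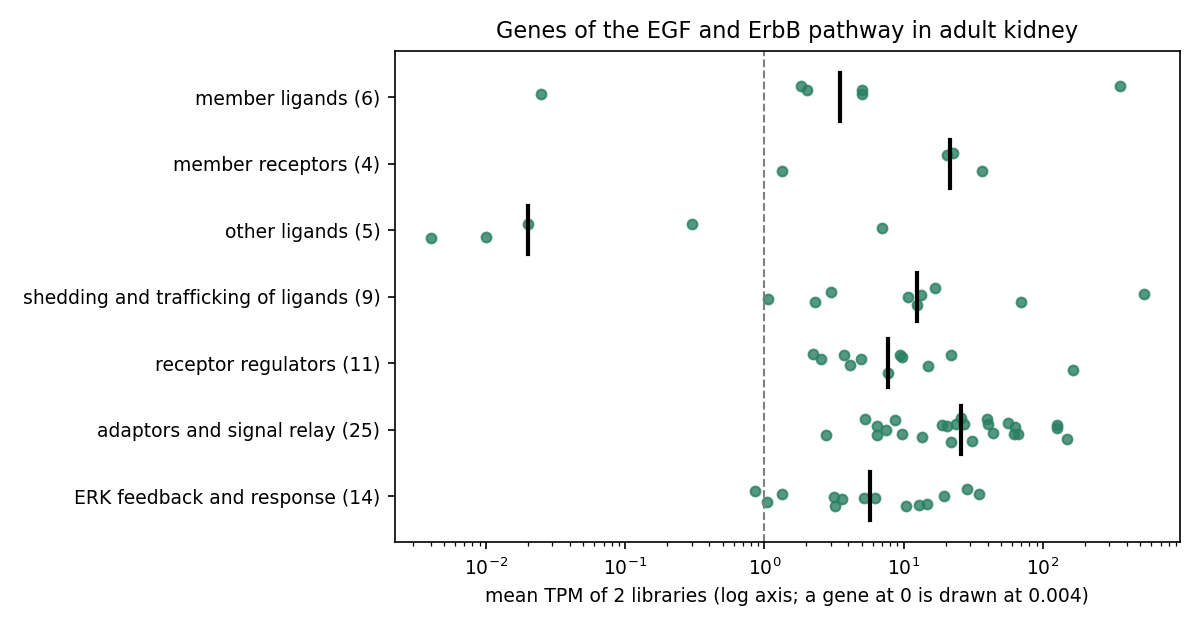
Mean TPM over both libraries, on a log axis, for each gene of the EGF and ErbB pathway lists, 1 point a gene, with the number of genes in brackets and a bar at the median of each list. A gene at 0 is drawn at the left edge, and vertical offsets only separate points. Egf at 360.2 TPM stands apart from the other ligands, and all 25 relay genes lie to the right of the dashed line at 1 TPM.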

How the data were processed

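The authors deposited a gene table and a transcript table for each library (build mm10, annotation M4). Per the labels, the libraries were stranded, paired-end reads of 76 nt from polyadenylated RNA; aligner and quantifier: not given in the sources used here. Per the file headers, the deposited values are an expected count per gene and transcript, TPM, FPKM, the percent of each isoform in its gene, and posterior SDs and TPM interval bounds, which are signal values. Library sizes excluded rows with numeric identifiers and spike-ins, the latter with 1.59% of expected counts in replicate 1 and 2.29% in replicate 2.

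Members were matched by identifier through GENCODE M21, and the coding bases and translations came from M21 in place of the RefSeq proteins first planned. Detection meant 1 TPM or more in both libraries. Expected counts were rounded, scaled with TMM (edgeR 4.0.16, R 4.3.3; factors 1.03 and 0.974) and compared by a two-sided exact binomial test (SciPy 1.17.1) for genes with 10 or more counts in sum, with Benjamini-Hochberg adjustment over all of them and a call at an adjusted p under 0.05 and 2-fold or more. Log2 ratios of genes with a count of 0 used a prior count of 0.5. The test was checked on simulated counts. Intervals (95%) and the limit of 3 counts for a count of 0, which is 0.0446 and 0.0344 CPM in replicates 1 and 2, reflect counting error alone, as no molecular identifiers are named.

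The members and the gene lists were chosen with earlier results of these data known. The named genes were all members, their transcripts with a share of 10% or more, the other ligands, and the 3 highest and the lowest of each pathway list; genes added for their known role in EGF shedding or response (Adam17, Adam10, Egr1, Dusp5) and transcripts below that share were chosen after their values were seen. Alternatives were DESeq2 1.42.0 size factors, other filters and thresholds, posterior mean TPM, FPKM, TPM over nuclear protein-coding genes, and each library alone. The mm9 junction and contig tables were not used here.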

Additional observations from a re-analysis of the deposited data

How the results depend on the processing

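No member was called under any of the 5 alternatives of the test. Under the alternatives 53 of 70 levels and 29 of 36 isoform shares stayed within 1 SD of the value reported, and 34 of 40 log2 ratios within 1.5-fold. The counts for levels and shares include each library alone. With n = 2 a single library always lies within 1 SD of the mean, so these alternatives could not have moved. Of all genes, 849 were called with 10 or more counts in each library and 2614 at 1.5-fold or more, against 1455. At 5 TPM, 4 of the members were detected in both libraries, against 9 at 1 TPM. In the order by mean TPM, 4 members changed place by posterior mean TPM and 2 without replicate 1 or without replicate 2. In the alternatives chosen after the data were seen, 2 changed place over protein-coding transcripts and 2 over 1 fixed transcript length, where Egfr had 7.10 TPM and Tgfa 2.38. Over nuclear protein-coding genes Egf had 515 TPM. The log2 ratio of Egfr was -1.20 on log2(TPM + 1) against -0.24 by counts. By expected counts, the share of Egfr-201 was 71.8% against 25.8%, and that of Tgfa-202 was 5.97% against 53.7%. No paired analysis was possible because there is a single group. Depth limits Areg, whose counts were too few to test, and the deposited SDs limit the split among Erbb4 and short Egfr transcripts.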

Other observations

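Erbb4-204, a noncoding model of 240 nt, had 0 expected counts in both libraries, yet held 24.45% and 18.43% of Erbb4 TPM in replicates 1 and 2 by the deposited posterior mean. Its effective length was 35.5 and 46.2 nt. By that estimate the share of Erbb4-202 averaged 50.9% over the libraries, against 70.5% by the maximum likelihood values, and Erbb4 had 2.14 and 1.57 TPM, against 1.84 and 1.81 for Btc.

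One transcript that the deposited tables count under Tgfa carries another gene's name in M21, Gm43917, on the opposite strand. It had 2 and 0 expected counts.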
